A study of Mus musculus with 4 samples.

Results

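The cytochrome P450 family was followed through 4 RNA-seq libraries of sorted mouse alveolar type 1 (AT1) cells, the flat cells through which gas passes between air and blood. Members were all genes of the deposited tables whose symbol starts with Cyp and a digit, without Cyp51 and the genes marked as pseudogenes, which gave 99 genes of 23990. All animals were newborns of postnatal day 3 or 4 on a mixed B6 and 129 background, and all carried Scnn1a-Cre, a Cre recombinase expressed from the gene of an epithelial sodium channel subunit. The 2 libraries labelled Sox2 are given the genotype Scnn1a-Cre; Rosa[Sox2/+], in which Cre switches on the airway transcription factor Sox2. The 2 libraries labelled control are given the genotype Scnn1a-Cre; Rosa[mTmG/+], in which Cre switches on a membrane reporter instead, and the protocol describes the animals as littermates. The titles of the libraries labelled control read WT (wild type), beside that genotype. No label says which animal each library came from, so p-values measure the spread between these libraries, which may be technical.

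P450 enzymes are heme proteins that insert an oxygen atom into a substrate, with electrons passed on from a partner reductase. Families 1 to 3 mostly act on foreign compounds, steroids and arachidonic acid, family 4 hydroxylates the end of fatty acid chains, family 26 clears retinoic acid, and others make bile acids, steroid hormones or active vitamin D. In the lung they are best known from club cells, the secretory cells of the airway, where Cyp2f2 turns naphthalene into a toxic product.

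Sox2 went against these labels and genotypes. It stood at 1.41 and 1.99 FPKM (fragments scaled to transcript length and to depth) under the Sox2 label, against 302 and 477 FPKM under the control label. The log2 difference, taken on the log2(FPKM + 1) scale as labelled Sox2 minus labelled control in every test, was -7.15 (SE 0.34, adjusted p = 2.39e-06 in limma). Transgenic and endogenous Sox2 share 1 entry. Directions below follow the deposited labels, so a gene called lower is low where Sox2 is low. Whether the labels were exchanged was not tested. If they were, every direction below would turn round.

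Markers of the sorted cells and of others moved with the labels as well. AT1 markers, the sort's target, passed as higher in 9 of 10 under the Sox2 label, with a summed level of 6525 and 7508 FPKM against 1179 and 639 FPKM. AT2 markers were higher in 10 of 10 (summed, 18209 to 26261 against 1020 to 6195 FPKM). Basal markers were lower in 3 of 5 (4.26 to 5.74 against 62.0 to 221 FPKM) and mucous markers in 2 of 3 (3.57 to 4.36 against 7.75 to 19.7 FPKM), while the basal keratins Krt5 and Krt14 were at or near 0 in every library. Some endothelial (2 of 8), leukocyte (3 of 6), ciliated (1 of 7) and red cell markers (1 of 5) passed as higher. Red cell sums overlapped between the labels, at 202 and 927 against 56.3 and 256 FPKM. Of all 12040 tested genes, 4.2% were called higher and 8.11% lower in limma. No mesenchymal marker passed in limma (0 of 8, with 3 at an unadjusted p under 0.05), and their sum was 284, 93.5, 127 and 29.2 FPKM in labelled Sox2 replicates 1 and 2 and labelled control replicates 1 and 2. Their part in the P450 differences below was not tested. In bulk libraries, fewer cells of a type and less RNA per cell cannot be told apart. Absolute depth is unknown, and the deposited bounds had a median half-width of 7.81% to 12.4% of the value for genes of at least 1 FPKM. These bounds cover the error within 1 library, not the spread between libraries, and they lay apart within the Sox2 label in 8 and within the control label in 6 of the 14 P450 genes tested below. Labelled control replicate 2 stood apart in its makeup: small RNA genes held 367471 of its 721291 summed FPKM, against 16835 to 94467 FPKM in the other libraries. Its marker sums also differed from those of labelled control replicate 1. AT2 markers summed to 1020 against 6195 FPKM, leukocyte markers to 80.0 against 308 FPKM and basal markers to 221 against 62.0 FPKM.

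Of the 99 P450 genes, 14 averaged at least 1 FPKM across all libraries and were tested. A further 2, Cyp2j9 and Cyp27a1, reached 1 FPKM in at least 1 library, 41 stayed between 0 and 1 FPKM, and 42 were listed at 0 in every library. Cyp2f2 alone held 53.3% and 62.1% of the summed P450 FPKM under the Sox2 label and 44.97% and 81.6% under the control label. Without Cyp2f2, the sum of the remaining 98 members was 82.8, 65.5, 88.8 and 84.9 FPKM in the same order, a narrower spread than with it.

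**Figure D1:**
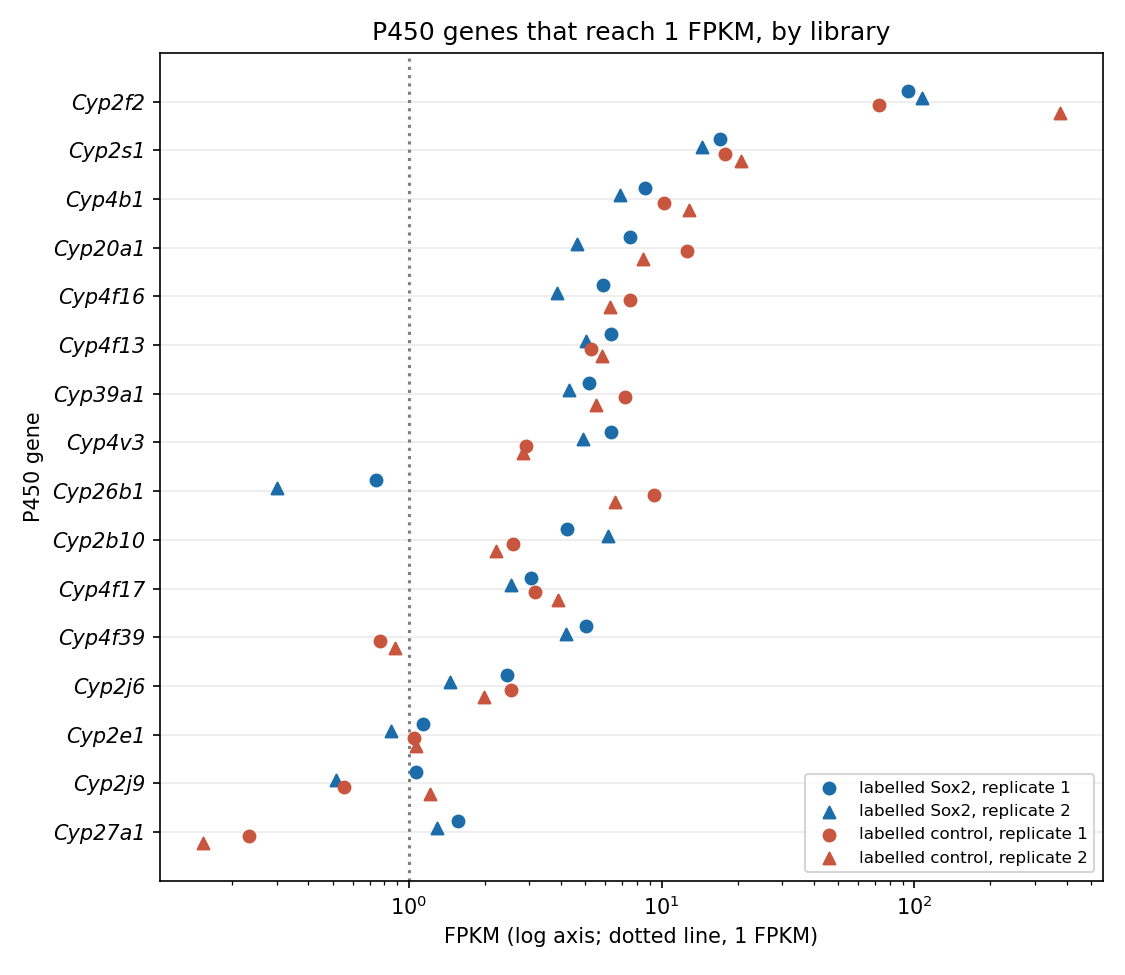
FPKM of the 16 P450 genes that reach 1 FPKM in at least 1 library, on a log axis, with 1 point per library. Cyp2f2 stands far to the right of the others, Cyp26b1 and Cyp4f39 show the widest gaps between the labels among the 14 tested genes, and Cyp2f2 in labelled control replicate 2 lies apart from its other 3 values.

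Between the labels, 1 tested P450 gene was higher under the Sox2 label (Cyp4f39), 1 was lower (Cyp26b1) and 12 did not pass limma's threshold of 0.05. This is 14.3% of the 14 tested, near the 12.3% called among all 12040 tested genes, of which 4.2% (506) were higher and 8.11% (976) lower. Over all genes that balance turned round under median-of-ratios rescaling, with 964 higher and 686 lower, and under quantile normalization, with 980 and 827. Under median-of-ratios rescaling or quantile normalization Cyp4v3 passed as well, which made 2 higher and 1 lower. The median log2 difference of the 14 members was -0.26, beside -0.29 over all tested genes, and a difference can be read against that shift. The groups did not overlap in 10 of the 14 (3 with the libraries labelled Sox2 above, 7 below), or 71.4%, where 58.1% of all tested genes did not overlap. The call of Cyp26b1 was lost without labelled Sox2 replicate 2, and that of Cyp4f39 without either library labelled Sox2. Over all tested genes, too, fewer were called in each of these fits than with all libraries.

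Cyp26b1 breaks down retinoic acid, the hormone-like derivative of vitamin A that patterns the lung, and lies on chromosome 6 (84571414 to 84593908, build mm10). Its level was 0.742 and 0.300 FPKM under the Sox2 label, and 9.30 and 6.57 FPKM under the control label. Both libraries labelled control stood far above both labelled Sox2. The deposited bounds lay apart across the labels, but also between the libraries of each label. The means were 0.521 ± 0.312 FPKM (SD, n = 2) and 7.93 ± 1.93 FPKM (SD, n = 2), a 15.2-fold lower level under the Sox2 label, and the log2 difference was -2.55 (SE 0.40, adjusted p = 0.00344 in limma). The fold was 26.4 with labelled Sox2 replicate 1 dropped, which rests on the 0.300 FPKM of replicate 2, and 10.7 with labelled Sox2 replicate 2 dropped. It was 12.6 and 17.8 with labelled control replicate 1 or 2 dropped. With labelled Sox2 replicate 2 dropped the log2 difference was -2.34 and missed the threshold. The other enzymes of this family were close to absent, with Cyp26a1 between 0.0227 and 0.0655 FPKM and Cyp26c1 above 0 in labelled control replicate 2 only, at 0.0382 FPKM.

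Cyp4f39 belongs to the fatty acid hydroxylases of family 4 and is the mouse counterpart of a human enzyme needed for the very long chain lipids of the skin barrier. It lies on chromosome 17 (32452723 to 32493320, mm10). It stood at 5.03 and 4.17 FPKM under the Sox2 label and at 0.773 and 0.880 FPKM under the control label. The libraries of a label lay close together and the labels were apart. The means of 4.60 ± 0.607 and 0.826 ± 0.0751 FPKM (SD, n = 2 each) give a 5.57-fold higher level under the Sox2 label, with a log2 difference of 1.61 (SE 0.38, adjusted p = 0.0223 in limma). That log2 difference was 1.502 and 1.72 without labelled Sox2 replicate 1 or 2, where the call was lost (adjusted p = 0.138 and 0.136 in limma).

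The windows around the start sites of both changed genes and of Cyp2f2, the most abundant member, are shown to set their sequence beside these values. Each runs from 250 bases before to 50 bases after the RefSeq start, in build GRCm38.p6, 5′ to 3′ on the strand of the gene. Capitals mark matches, on either strand, to 5 short motifs: the xenobiotic response core GCGTG, the retinoic acid receptor half-site AGGTCA, the SOX motif CATTGT, the TATA motif TATAAA and the AP-1 motif TGANTCA.
Cyp26b1, chr6:84593761-84594060, minus strand: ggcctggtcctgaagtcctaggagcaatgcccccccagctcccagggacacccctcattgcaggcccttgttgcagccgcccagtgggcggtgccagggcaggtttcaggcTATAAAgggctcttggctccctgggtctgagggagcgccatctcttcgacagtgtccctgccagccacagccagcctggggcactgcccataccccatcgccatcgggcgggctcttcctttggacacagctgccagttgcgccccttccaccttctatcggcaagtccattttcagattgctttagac
Cyp4f39, chr17:32452473-32452772, plus strand: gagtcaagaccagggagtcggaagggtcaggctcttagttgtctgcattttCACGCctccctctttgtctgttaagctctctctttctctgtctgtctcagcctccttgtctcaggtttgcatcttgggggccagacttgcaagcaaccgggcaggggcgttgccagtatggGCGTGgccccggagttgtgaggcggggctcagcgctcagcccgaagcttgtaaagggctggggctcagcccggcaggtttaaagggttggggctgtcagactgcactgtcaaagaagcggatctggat
Cyp2f2, chr7:27119705-27120004, plus strand: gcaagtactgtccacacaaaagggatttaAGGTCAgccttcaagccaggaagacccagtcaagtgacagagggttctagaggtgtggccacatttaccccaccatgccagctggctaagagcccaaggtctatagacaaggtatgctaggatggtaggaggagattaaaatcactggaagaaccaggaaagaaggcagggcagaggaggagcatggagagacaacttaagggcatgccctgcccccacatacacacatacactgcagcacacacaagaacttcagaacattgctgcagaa

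The Cyp26b1 window held 1 match, the TATA motif at position -139 from the RefSeq start site. That start lies 98 bases downstream of the gene's start in the deposited tables, and the match lies upstream of both. The Cyp4f39 window held the xenobiotic core at -199 on the opposite strand and at -78. The Cyp2f2 window held the half-site at -221. None of the 3 windows held the SOX motif, which occurred in 12.6% of all 32851 windows of 300 bases, and no match or lack of one says whether a factor binds. A window was found for 76 of the 99 members, 12 of them tested. Among the 76, the TATA motif occurred in 33, or 43.4%, beside 13.6% of all windows. The xenobiotic core occurred in 15 (19.7%, beside 32.4%), the half-site in 19 (25%, beside 16.3%), the SOX motif in 13 (17.1%) and the AP-1 motif in 6 (7.89%, beside 7.81%). These shares come mostly from untested members. Among the 12 tested, the TATA motif occurred in 2, the xenobiotic core in 5, the half-site in 1, the SOX motif in 1 and the AP-1 motif in 2. Windows of the 64 untested members held a median of 2 CpG pairs, those of the 12 tested members 5.5, and all windows 7. The 29 windows of members listed at 0 held at most 4.

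Cyp2f2 (chromosome 7, 27119955 to 27133660, mm10) was the most abundant P450 gene in every library. It stood at 94.3 and 107 FPKM under the Sox2 label, and at 72.6 and 376 FPKM under the control label. The 2 libraries labelled control enclosed those labelled Sox2, and differed from each other 5.18-fold, far beyond their bounds of 70.0 to 75.1 and 369 to 383 FPKM. The log2 difference was -0.71 (95% interval -2.002 to 0.58, adjusted p = 0.457 in limma) and did not pass. It was 0.47 without labelled control replicate 2 (adjusted p = 0.507 in limma). Without labelled control replicate 1 it was -1.89 and passed (adjusted p = 1.76e-04 in limma), with labelled control replicate 2 then the single library of its label.

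With the exception of Gsta3, club cell markers did not share the high value of labelled control replicate 2. Of 14 tested markers, 3 were higher under the Sox2 label, the remaining 11 missed the threshold, and no marker was lower. The shares over all tested genes were 4.2% higher and 8.11% lower. The median log2 difference was 1.24. The main club cell secretion Scgb1a1 stood at 3263 and 5594 FPKM under the Sox2 label and at 1796 and 1730 FPKM under the control label, a ratio of 0.963 between the latter where Cyp2f2 had 5.18. Per 100 FPKM of Scgb1a1 there were 2.89, 1.92, 4.04 and 21.7 FPKM of Cyp2f2 in labelled Sox2 replicates 1 and 2 and labelled control replicates 1 and 2. Of the 14 markers only Gsta3, a glutathione transferase, was highest in labelled control replicate 2 (7.81 FPKM), while 12 were highest in a library labelled Sox2.

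**Figure D2:**
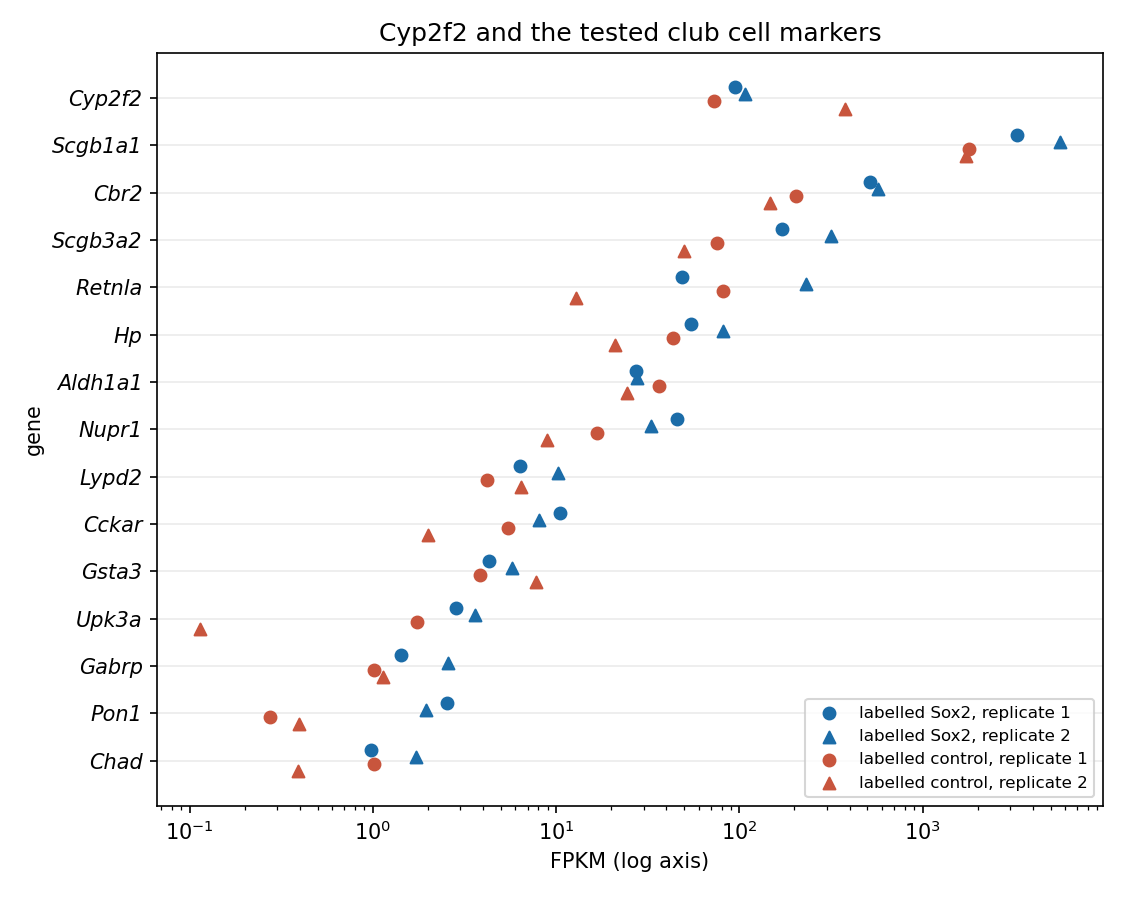
FPKM of Cyp2f2 and the 14 tested club cell markers in each library, on a log axis, with 1 point per library. For Cyp2f2 the red triangle of labelled control replicate 2 lies at 376 FPKM, to the right of its other points, while for most markers, Scgb1a1 among them, the blue points of the libraries labelled Sox2 lie furthest right.

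The remaining tested members of family 2 did not pass. Cyp2s1, an enzyme of epithelia outside the liver, came next in abundance at 17.1 and 14.5 FPKM under the Sox2 label and 17.8 and 20.7 FPKM under the control label (log2 difference -0.27, 95% interval -1.00 to 0.46). Its range lay clear of those of Cyp2f2 above and Cyp4b1 below. Cyp2b10, best known as a drug-induced enzyme of the liver, stood at 4.22 and 6.15 FPKM against 2.59 and 2.21 FPKM. Both of its libraries labelled Sox2 lay above both labelled control, and the log2 difference was 0.85 (95% interval -0.02 to 1.72, adjusted p = 0.178 in limma). Cyp2b10, like the Cyp4f genes, has close copies beside it, and how fragments were split between copies is uncertain. Cyp2j6, of a subfamily that oxidises arachidonic acid, stood at 2.45 and 1.46 against 2.53 and 1.99 FPKM, and Cyp2e1, the ethanol-induced enzyme, at 1.14 and 0.852 against 1.05 and 1.07 FPKM. The groups overlapped for both. The sign of these small differences followed the scaling: those of Cyp2s1 (0.07 and 0.04), Cyp2j6 (0.07 and 0.0049) and Cyp2e1 (0.12 and 0.04) were above 0 under median-of-ratios rescaling and quantile normalization.

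Among the 6 tested fatty acid hydroxylases of family 4, Cyp4f39 alone passed. Cyp4b1, a lung enzyme that activates furan toxins, stood at 8.62 and 6.83 FPKM under the Sox2 label and at 10.3 and 12.9 FPKM under the control label (log2 difference -0.53, 95% interval -1.32 to 0.27). The groups did not overlap, but the gap was within the error of the fit. Cyp4v3, whose human counterpart is mutated in a crystalline disease of the retina, showed the opposite order with 6.33 and 4.87 against 2.91 and 2.83 FPKM. Its log2 difference of 0.76 (95% interval -0.09 to 1.61, adjusted p = 0.215 in limma) passed under median-of-ratios rescaling (1.04, adjusted p = 0.0404 in limma) and quantile normalization (0.99, adjusted p = 0.0440 in limma). Cyp4f13 had nearly equal means of 5.67 and 5.52 FPKM. Cyp4f16 averaged 4.86 against 6.89 FPKM (log2 difference -0.45) and Cyp4f17 2.79 against 3.53 FPKM (-0.26, or 0.0053 under median-of-ratios rescaling), and neither passed.

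Cyp20a1, an enzyme with no known substrate, and Cyp39a1, which hydroxylates an oxysterol on its way to bile acids, did not pass either. Cyp20a1 stood at 7.49 and 4.63 against 12.6 and 8.48 FPKM (log2 difference -0.71, 95% interval -1.59 to 0.16). Cyp39a1 stood at 5.17 and 4.29 against 7.14 and 5.49 FPKM (-0.35, 95% interval -1.19 to 0.49). In both genes the libraries labelled Sox2 were the lower pair. From Cyp4b1 down to Cyp2j6, neighbours in the order of mean level had overlapping ranges over the 4 libraries, so that order is not firm. Cyp2e1 came last, with its range below that of Cyp2j6.

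**Figure D3:**
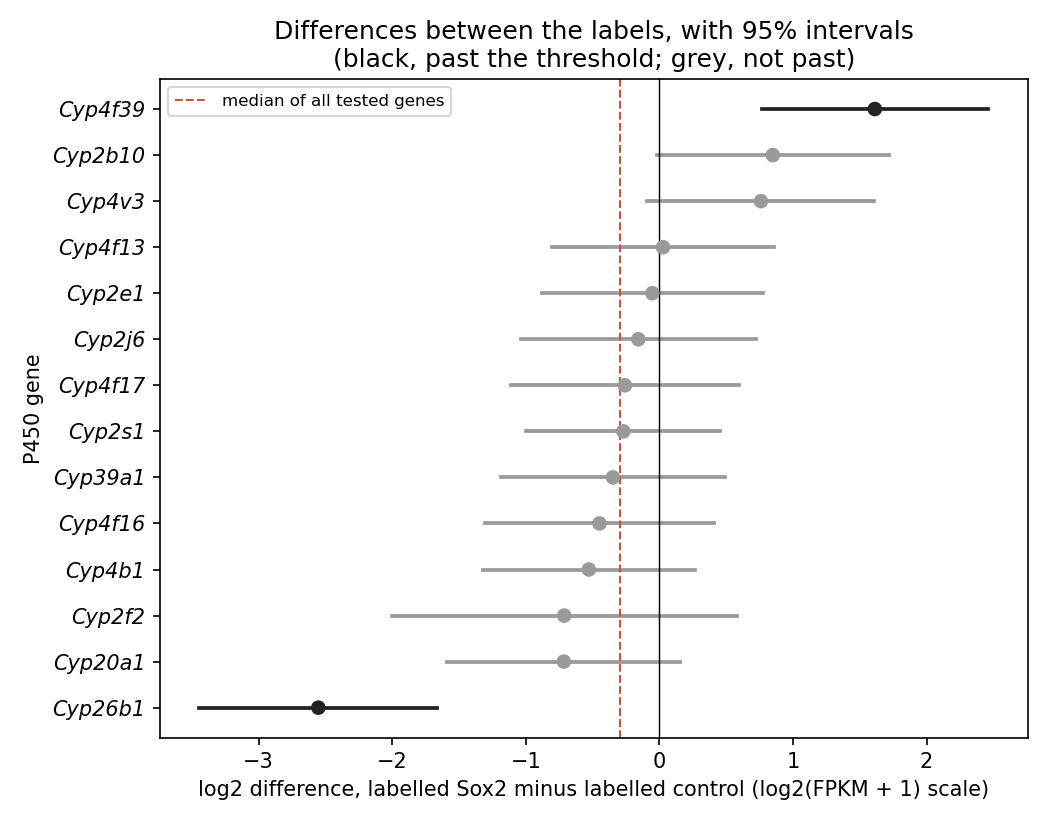
Log2 difference of each of the 14 tested P450 genes, labelled Sox2 minus labelled control in log2(FPKM + 1), with the 95% interval of the limma fit as a bar. The intervals of Cyp4f39 and Cyp26b1 (black) lie clear of 0 on opposite sides, and those of the other 12 (grey) reach across it, with the dashed line at the median of all tested genes (-0.29).

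Cyp27a1, the mitochondrial sterol 27-hydroxylase, fell short of the filter with a mean of 0.812 FPKM and was not tested. It stood at 1.57 and 1.29 FPKM under the Sox2 label and at 0.234 and 0.153 FPKM under the control label. The labels did not overlap, with means 7.39-fold apart. Cyp2j9 stood at 1.07 and 0.515 against 0.556 and 1.22 FPKM, with overlapping groups. Of the other untested members, the 3 of the aryl hydrocarbon response reached at most 0.927 FPKM, a value of Cyp1a1 in labelled Sox2 replicate 1 that its other libraries did not approach (0.106, 0.0891 and 0 FPKM). The 9 members of family 3 reached at most 0.879 FPKM and 8 of them were listed at 0. None of the 6 steroid hormone enzymes exceeded 0.337 FPKM and none of the 3 vitamin D enzymes 0.598 FPKM.

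Many P450 genes sit in clusters of close copies. With gaps of at most 1 Mb, 7 clusters of 4 or more held 69 of the 99 genes and 9 of the 14 tested ones. On chromosome 7 (25802476 to 27158564), Cyp2s1, Cyp2b10 and Cyp2f2 were tested, and the other 10 members reached at most 0.359 FPKM. On chromosome 4 (115108682 to 115647705), Cyp4b1 was tested and its 9 neighbours reached at most 0.144 FPKM. The chromosome 17 cluster (32452723 to 32947361) held Cyp4f39, Cyp4f17, Cyp4f16 and Cyp4f13 as tested members among 8, and none of these 8 was listed at 0 in every library. Cyp4f39, at its end, passed as higher under the Sox2 label, whereas the 3 others did not pass. The Cyp2c cluster on chromosome 19 (14 members, at most 0.147 FPKM), the Cyp2d cluster on chromosome 15 (9 members, at most 0.840 FPKM) and the Cyp3a cluster on chromosome 5 (8 members, all listed at 0) had no tested member. A second cluster on chromosome 4 held Cyp2j6 and Cyp2j9 among 7.

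**Figure D4:**
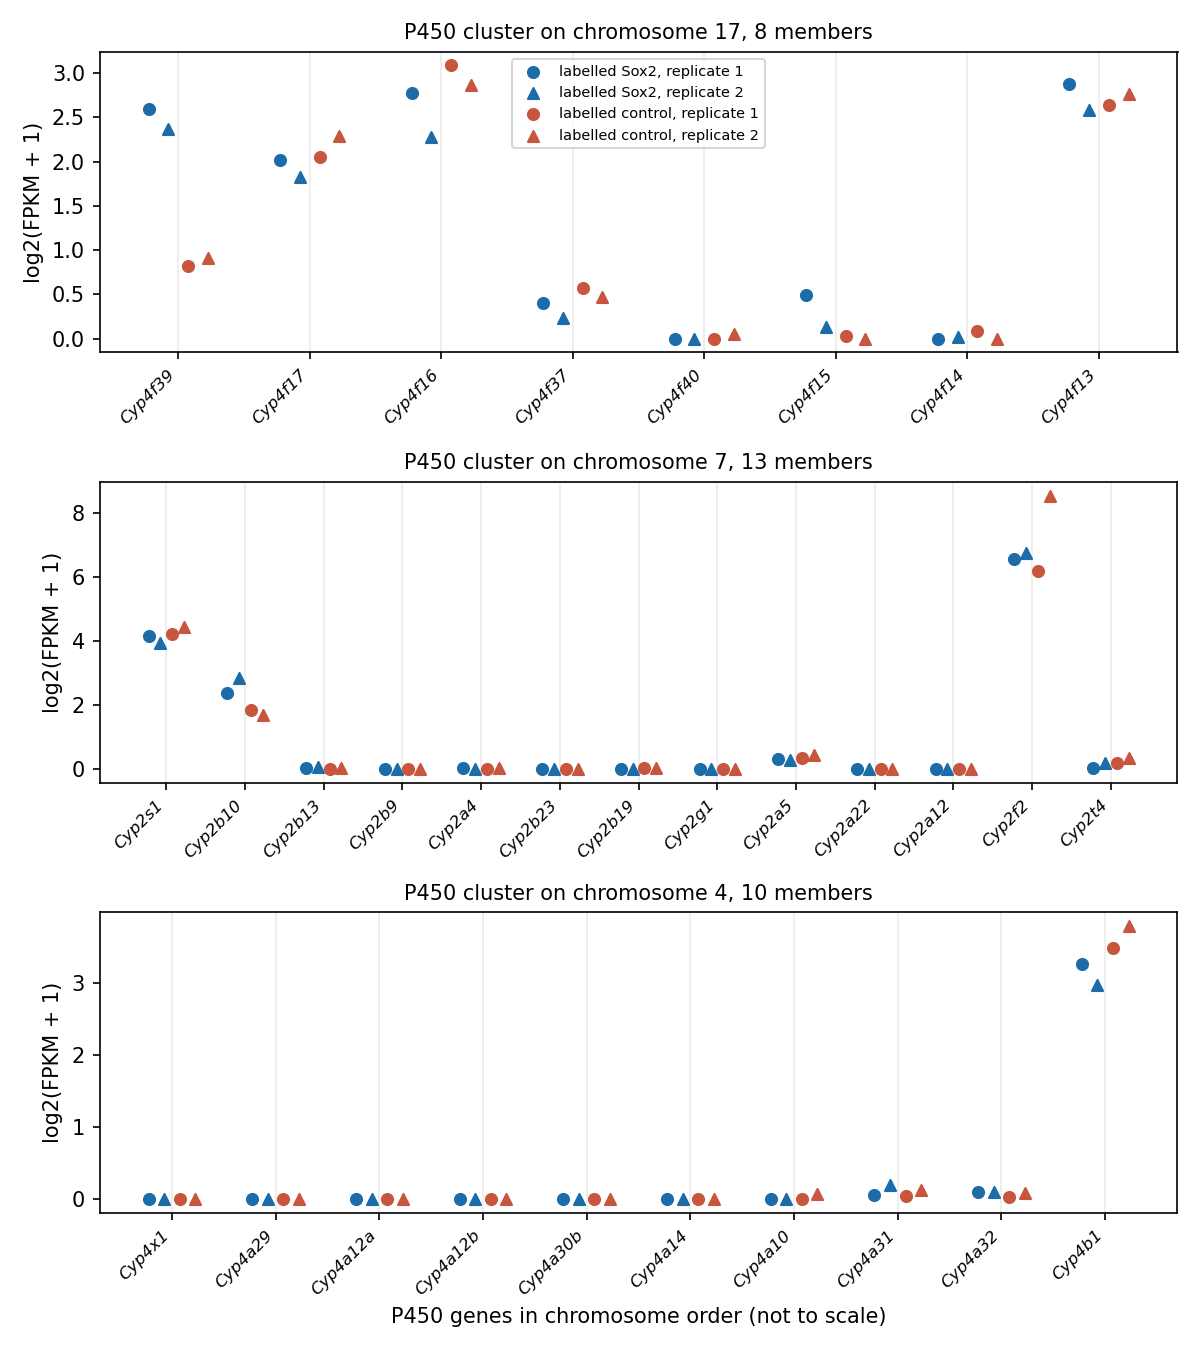
Log2(FPKM + 1) of every P450 gene of 3 clusters, in chromosome order and not to scale, with 1 point per library. In the chromosome 17 cluster Cyp4f39 shows blue points above red ones while its expressed neighbours overlap or lie close, and in the clusters on chromosomes 7 and 4 most genes lie near 0.

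Genes that work with P450 enzymes were read from the same fit. Of 125 genes in 7 lists, 86 were tested, 4 were higher and 9 lower under the Sox2 label, and 73 did not pass. This is 15.1%, beside 12.3% of all tested genes. The split was 7 higher and 5 lower under both median-of-ratios rescaling and quantile normalization. With labelled Sox2 replicate 1 left out there were 1 higher and 6 lower, and with replicate 2 of that label left out 0 and 3 (18 of the 86 had an unadjusted p under 0.05 in limma). With labelled control replicate 1 left out there were 7 and 11, and with its replicate 2 left out 7 and 8.

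Retinoic acid genes stood beside Cyp26b1 with changes in both directions. Of 11 tested, 1 was higher and 3 were lower under the Sox2 label, and 7 did not pass, beside 12.3% called among all tested genes. Aldh1a2, which makes retinoic acid, stood at 1.501 and 0.342 FPKM under the Sox2 label and at 6.04 and 9.97 FPKM under the control label (log2 difference -2.26, adjusted p = 0.00999 in limma). It thus lay lower in the same libraries as Cyp26b1. The retinol-oxidising Adh7 stood at 0.0471 and 0.0341 against 15.8 and 61.5 FPKM. Fabp5, which carries retinoic acid and fatty acids, was higher at 156 and 110 against 49.5 and 38.5 FPKM. The log2 difference of Adh7 was -4.96, and ran from -5.91 to -4.01 with 1 library left out. A fit without 1 of the labelled control libraries measures no spread within that label. Without labelled Sox2 replicate 2, Aldh1a2 (adjusted p = 0.169 in limma) and Fabp5 (0.0538) lost their calls, Fabp5 also without labelled Sox2 replicate 1 (0.0888).

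**Figure D5:**
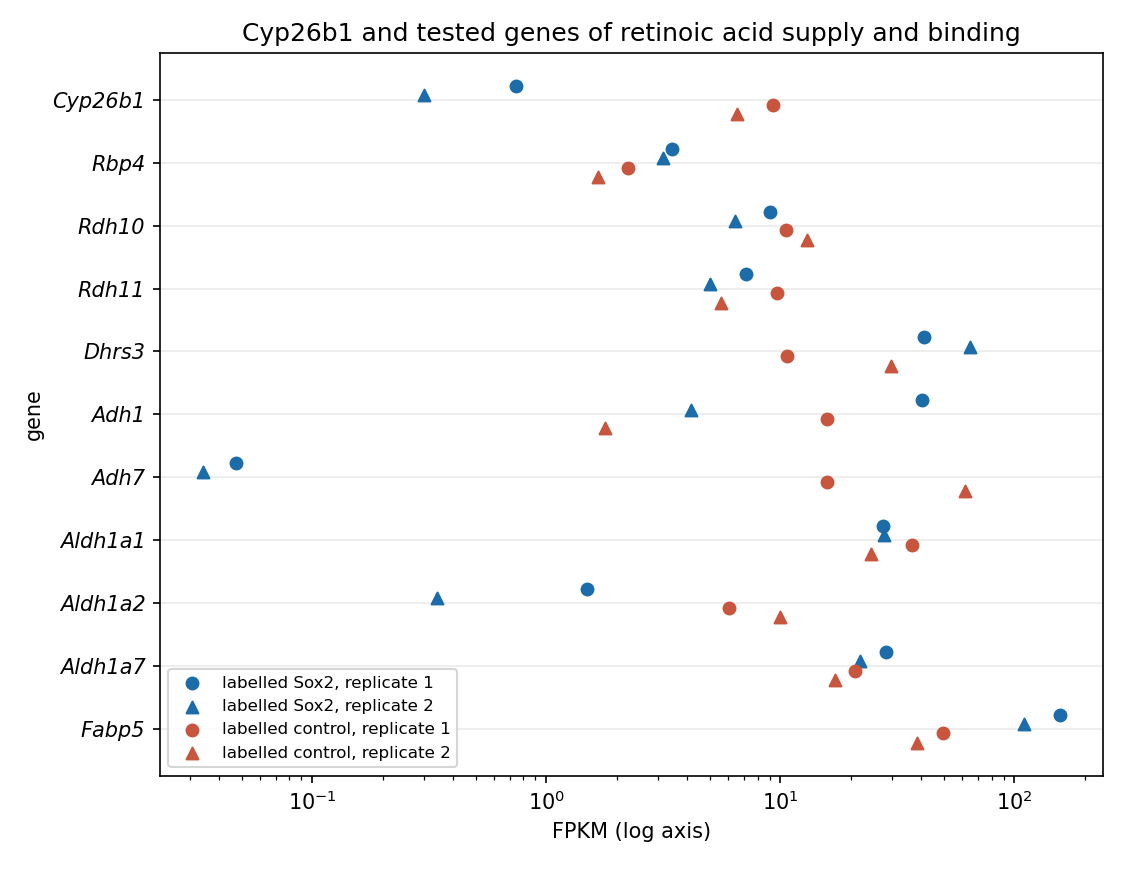
FPKM of Cyp26b1 and 10 of the 11 tested genes of retinoic acid supply and binding in each library, on a log axis, with 1 point per library. For Cyp26b1, Adh7 and Aldh1a2 both red points (labelled control) lie right of both blue points (labelled Sox2), and for Fabp5 both lie left.

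Epoxide hydrolases and conjugating enzymes act on what P450 enzymes make. Of 21 tested, 2 were higher and 4 lower under the Sox2 label, and 15 did not pass. Among all 12040 tested genes, 12.3% were called in either direction. Ephx1, which opens the epoxides that P450 enzymes form, stood at 8.77 and 7.83 against 45.6 and 149 FPKM (log2 difference -3.17, adjusted p = 0.00266 in limma). The glutathione transferase Gsta4 stood at 8.75 and 23.4 against 85.3 and 172 FPKM (-2.99, adjusted p = 0.00321 in limma). With 1 library left out, the log2 difference ran from -4.01 to -2.33 for Ephx1 and from -3.65 to -2.33 for Gsta4. Gsto1 stood at 31.6 and 36.2 against 128 and 718 FPKM (-3.13). Gstt1 went the other way, at 24.4 and 19.4 against 5.71 and 1.73 FPKM (2.41). Gsto1 lost its call without labelled Sox2 replicate 2 (adjusted p = 0.0686 in limma), under both rescalings (0.0828 and 0.0638) and under the robust variance model (0.217), and Gstt1 without labelled Sox2 replicate 1 (0.0754) or 2 (0.0867). Ephx1, Gsta4 and Gsto1, like Cyp2f2, were highest in labelled control replicate 2. That library had the high share of small RNA and cell marker sums unlike those of labelled control replicate 1. The part of either in these values was not tested.

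Folds of these genes followed single libraries. That of Ephx1, 11.7 with all libraries, was 17.9 and 5.49 once labelled control replicate 1 or 2 was dropped. That of Gsto1, 12.5, was 21.2 and 3.77, and that of Gstt1, 5.90, was 12.7 and 3.84. That of Gsta4, 8.00, was 5.31 with labelled control replicate 2 dropped and 14.7 with labelled Sox2 replicate 2 dropped. That of Aldh1a2, 8.69, was 23.4 and 5.33 once labelled Sox2 replicate 1 or 2 was dropped.

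Of 11 tested electron donors, with a median log2 difference of -0.66, only Cyb5r3, a reductase of cytochrome b5, passed. Over all tested genes 12.3% were called, and the median log2 difference was -0.29. Cyb5r3 stood at 76.0 and 72.9 against 141 and 163 FPKM (log2 difference -1.02, adjusted p = 0.0487 in limma). That call was lost under both rescalings (-0.67 and -0.73) and with labelled Sox2 replicate 1, labelled Sox2 replicate 2 or labelled control replicate 2 left out (adjusted p = 0.136, 0.252 and 0.134 in limma). It was also lost with a pseudocount of 0.1 (0.0501), a filter at 5 FPKM (0.0531) and a variance model without trend (0.0865). The electron donor Por lay opposite to the list's median, at 42.6 and 51.0 against 24.2 and 34.8 FPKM. Its log2 difference of 0.67 did not pass (adjusted p = 0.201 in limma). Pgrmc1, Fdx1 and Cyb5 also had positive differences (0.56, 0.27 and 0.096) and did not pass, while those of the remaining tested donors were negative. No gene of 13 for heme synthesis and breakdown passed in limma, with 1 at an unadjusted p under 0.05. The most abundant of them were Hmox2, a heme oxygenase, with 20.6 ± 6.12 against 16.2 ± 6.40 FPKM (SD, n = 2 each) and Urod, with 15.0 ± 4.00 against 16.98 ± 3.67 FPKM (SD, n = 2 each).

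Of 12 tested receptors that set P450 levels, Pparg alone passed, beside 12.3% called among all 12040 tested genes. This lipid-sensing nuclear receptor stood at 1.78 and 1.39 against 9.75 and 6.45 FPKM (log2 difference -1.79, adjusted p = 0.0164 in limma), but missed the threshold once labelled Sox2 replicate 1 (adjusted p = 0.0881 in limma) or 2 (0.194) was dropped. The drug-sensing receptors Nr1i2 and Nr1i3, which raise Cyp3a and Cyp2b genes in liver, did not exceed 0.0886 FPKM. Of 16 tested flavin monooxygenases and other oxidases, 1 was higher and 15 did not pass, beside 12.3% called among all tested genes. The higher one was the carbonyl reductase Cbr2, also a club cell marker, at 518 and 574 against 204 and 146 FPKM (log2 difference 1.65, adjusted p = 0.00913 in limma). Without labelled Sox2 replicate 2 its call was lost, at a log2 difference of 1.58. Among P450 enzymes outside the naming rule, the sterol demethylase Cyp51 averaged 10.9 ± 2.99 against 12.4 ± 5.91 FPKM (SD, n = 2 each) and the prostacyclin synthase Ptgis 1.36 ± 0.115 against 0.659 ± 0.507 FPKM (SD, n = 2 each), and neither passed.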

How the data were processed

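RNA of sorted AT1 cells was sequenced in 4 libraries, 2 per label, grouped by sample titles. The deposited values are FPKM per gene with lower and upper bounds, per the file headers. TopHat2, Bowtie2, Cufflinks and Cuffdiff with mm10 are named in the submitters' processing notes; tool versions and annotation are not given in the sources used. Depth is unknown. Another table holds 2 value columns that could not be mapped to labels, and it was not used.

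Entries of the same symbol were added, and Rn45s, flagged HIDATA (too many fragments) in some tables, was dropped. Of the resulting 23990 genes, those averaging 1 FPKM or more were tested on log2(FPKM + 1) in limma 3.58.1 (R 4.3.3; lmFit, eBayes with trend), as a two-sided test, with p-values adjusted by Benjamini-Hochberg over 12040 genes and a threshold of 0.05. The code of the fit was tested on simulated data of a set spread, not that of these libraries. This scale understates changes of low genes. Folds are ratios of mean FPKM. With 2 against 2 libraries an exact permutation test cannot go below 0.333, so none is given.

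The members and lists were chosen with earlier results of these data known. All members reaching 1 FPKM are named, and from each partner list up to 4 genes past the threshold with the largest difference, or the 2 most abundant. 1 gene that this rule names in the retinoic acid list is not reported here. Cyp1a1, Cyp26a1, Cyp26c1, Nr1i2, Nr1i3, Por, Pgrmc1, Fdx1, Cyb5, Krt5, Krt14, Scgb1a1 and Gsta3 were chosen after their values were seen. Cyb5a is listed as Cyb5, and Muc16 was not used. Promoter windows are RefSeq's. Alternatives were another pseudocount, no filter, a stricter filter, 2 rescalings, 2 variance models, the replicate block and each library left out.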

Additional observations from a re-analysis of the deposited data

How the results depend on the processing

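Without any low-value filter, limma called 0 P450 genes in either direction (5 of 57 had an unadjusted p under 0.05), 0 partner genes in either direction (31 had one) and 0 higher and 3 lower of all genes, and the call of each named P450 and partner gene was lost, though not that of Sox2. A filter at a mean of 5 FPKM removed Cyp26b1 and Cyp4f39 and left 0 calls among 7 P450 genes (0 with an unadjusted p under 0.05 in limma). Median-of-ratios rescaling gave 2 P450 genes higher, 7 partner genes higher and 5 lower, and 964 of all genes higher, and quantile normalization 2, 7, 5 and 980. The robust variance model gave 7 partner genes higher. With the replicate block there were 3 P450 genes higher and 2 lower, 12 and 17 partner genes, and 1142 and 2730 of all genes, and Cyp2b10, Cyp4v3 and Cyp20a1 were the P450 calls gained (adjusted p = 0.0488, 0.0480 and 0.0472 in limma). The labels give both groups the same replicate numbers without saying what a number marks, and same-numbered libraries' deviations from their group means correlated at 0.23 across genes, which does not settle whether the numbers pair the samples. With 2 numbers and no label that ties them, they are not treated as pairs. With 1 library left out, where the lone library of a label is assumed to vary like the others, the counts ran from 0 to 1 P450 genes higher, 0 to 2 lower (2 of 14 had an unadjusted p under 0.05 in limma without labelled Sox2 replicate 2), 0 to 7 and 3 to 11 partner genes, and 119 to 837 and 115 to 1312 of all genes. The log2 differences that changed sign belong to genes that did not pass with all libraries. Under median-of-ratios rescaling and quantile normalization they were 0.065 and 0.043 for Cyp2s1, 0.075 and 0.0049 for Cyp2j6, 0.12 and 0.038 for Cyp2e1, 0.21 and 0.16 for Cyp51 and 0.16 and 0.13 for Urod, and 0.0053 for Cyp4f17 under the former. With 1 library left out they ran from -1.89 to 0.47 for Cyp2f2, -0.12 to 0.17 for Cyp4f13, -0.40 to 0.088 for Cyp2j6, -0.16 to 0.050 for Cyp2e1, -0.58 to 0.35 for Cyp51, -0.042 to 0.73 for Hmox2 and -0.43 to 0.085 for Urod. The causes were not tested. Of 350 values of named genes under an alternative, 282 kept direction and side of the threshold. The filters, variance models and replicate block leave the log2 difference itself unchanged, so direction could not change there. The 350 also include genes that did not pass with all libraries, so the tally does not measure how stable the calls are. Depth is unknown, so no detection limit can be given for the 42 members listed at 0.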
